A study of Canis lupus familiaris with 4 samples.

Results

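ASNS and HERPUD1 are a pair of stress-response genes that were followed on every array of a study of E2-2 in MDCK cells, a dog kidney epithelial line. The members are the clones whose platform annotation carries exactly one of these symbols. That gave 2 clones, 1 per gene (human Entrez Gene 440 for ASNS and 9709 for HERPUD1), of 13824 clones on the array. Each clone is printed as 2 spots, so the members are 4 of 27648 spots. Both genes were chosen by their large ratios in these same arrays, so their own ratios are given as a description and without a test.

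ASNS encodes asparagine synthetase, the enzyme that makes asparagine from aspartate with glutamine as the nitrogen donor. Its transcription is a classic readout of amino acid shortage. The kinase GCN2 phosphorylates the initiation factor eIF2, the factor ATF4 is then translated, and ATF4 binds the ASNS promoter. HERPUD1 encodes a membrane protein of the endoplasmic reticulum that helps the HRD1 ubiquitin ligase complex remove misfolded proteins. It is induced by the unfolded protein response, through ATF6 and XBP1 and also through ATF4, so the pathways of these genes meet at ATF4.

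The study asked how basic helix-loop-helix factors regulate E-cadherin. MDCK cells carrying E22A or E22B, the E2-2 transfectants, were each compared with MDCK-CMV control cells on 2 arrays with 2 dyes. All cells grew in serum-containing medium, and the labelled RNA had been amplified. The design text calls the transfectants clones and gives a dye exchange for each, so the arrays of a transfectant are technical repeats. There was 1 biological sample of E22A, 1 of E22B and 1 control RNA that lies on every array, and all SDs below are over 2 arrays.

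The values are the log ratios of the dyes as the authors deposited them, read here as log2, which is the usual base but is not stated. Values on the arrays were present for 22360 to 23136 spots. The epithelial identity could not be checked by level, since a ratio gives none. Of 10 epithelial markers 7 had a clone and 5 a value on all arrays (CDH1, EPCAM, KRT8, CLDN4 and DSP), and of 5 mesenchymal markers 4 had one, VIM having no value. TCF4, the gene of E2-2, had deposited ratios of 0.27 and 0.36 in E22A and of 0.27 and 0.08 in E22B. It therefore did not turn with the dye in E22B, and the stretch of the gene that its clones cover was not analysed here.

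Where both ASNS spots had a value they gave similar ratios. The widest difference was 0.082 on E22B array 2, where the median over all clones was 0.027. On E22A array 1 the spots stood at -1.56 and -1.53, and on E22A array 2 at -1.06 and -1.09. On E22B array 1 only the second spot had a value, -1.77, and on E22B array 2 the spots stood at 1.18 and 1.10. ASNS was therefore negative on 3 arrays and positive on the last, each time by more than 2-fold. The single spot on E22B array 1 means that this ratio has no duplicate. On that array 3.77% of the clones with a value rested on 1 spot.

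HERPUD1 had both spots on every array. They stood at -2.40 and -2.39 on E22A array 1, at -1.86 and -1.91 on E22A array 2, at -1.34 and -1.30 on E22B array 1, and at 0.73 and 0.71 on E22B array 2. The order of signs is that of ASNS, and E22B array 2 was the one array on which HERPUD1 stayed under 2-fold. Its duplicates differed by 0.0065, 0.047, 0.036 and 0.013, and those of ASNS by 0.031, 0.027 and 0.082. The median difference between duplicates over all clones was 0.021 to 0.027 per array. The distance of both genes from 0 was many times the spread between duplicate spots, which is a printing and reading error and not a biological one. Since the genes were chosen by their large ratios on these arrays, nothing is read from that distance.

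**Figure D1:**
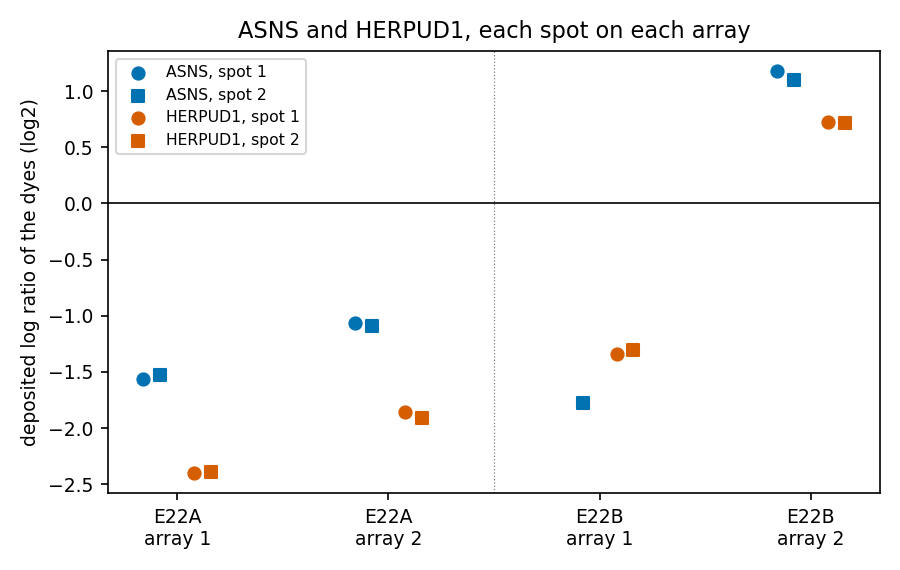
Deposited log2 ratio of the dyes (vertical axis) of each ASNS and HERPUD1 spot on each of the 4 arrays (horizontal axis), circles for spot 1 and squares for spot 2. All spots lie below 0 on both E22A arrays and on E22B array 1 and above 0 on E22B array 2, and ASNS spot 1 has no value on E22B array 1.

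For the comparison with the rest of the array, the duplicate spots of a clone were averaged, array medians were set to 0, and clones with the same symbol were averaged. This left 8657 features with a value on all arrays, 4892 of them genes with 1 symbol, and both members among them. Counted from the most negative ratio, HERPUD1 took place 10 on E22A array 1, 8 on E22A array 2 and 66 on E22B array 1, and from the most positive it took place 406 on E22B array 2. ASNS took places 33, 100 and 30 from the most negative, and 162 from the most positive on E22B array 2. HERPUD1 thus stood nearer the extreme than ASNS on the E22A arrays, and ASNS nearer on the E22B arrays.

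That order also held in size. On the E22A arrays HERPUD1 lay farther from 0 than ASNS, by 0.85 and 0.81 log2 units. On the E22B arrays ASNS lay farther than HERPUD1, by 0.45 and 0.42. This comparison lies within each array and needs no decision on which sample was in which dye. For HERPUD1 the sizes were 2.40 and 1.88 in E22A against 1.32 and 0.73 in E22B, so the sizes did not overlap. These are sizes of the ratios as deposited, any dye effect included. Turned under the array titles, as described below, the HERPUD1 ratios in E22A were -2.40 and 1.88. Those enclose its turned E22B ratios of 1.32 and 0.73, so the gap in size is not by itself a gap between transfectant effects. For ASNS they were 1.55 and 1.08 against 1.77 and 1.15, which overlap. Of all features 17.4% had both E22A sizes above both E22B sizes, so the place of HERPUD1 among them is common, and only the gap of 1.12 between its mean sizes is given as its measure. With the arrays scaled to a common spread the HERPUD1 sizes did not overlap either, as for 20.1% of all features, and the gap was 1.32. The difference between transfectants was not tested, since each is 1 sample.

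**Figure D2:**
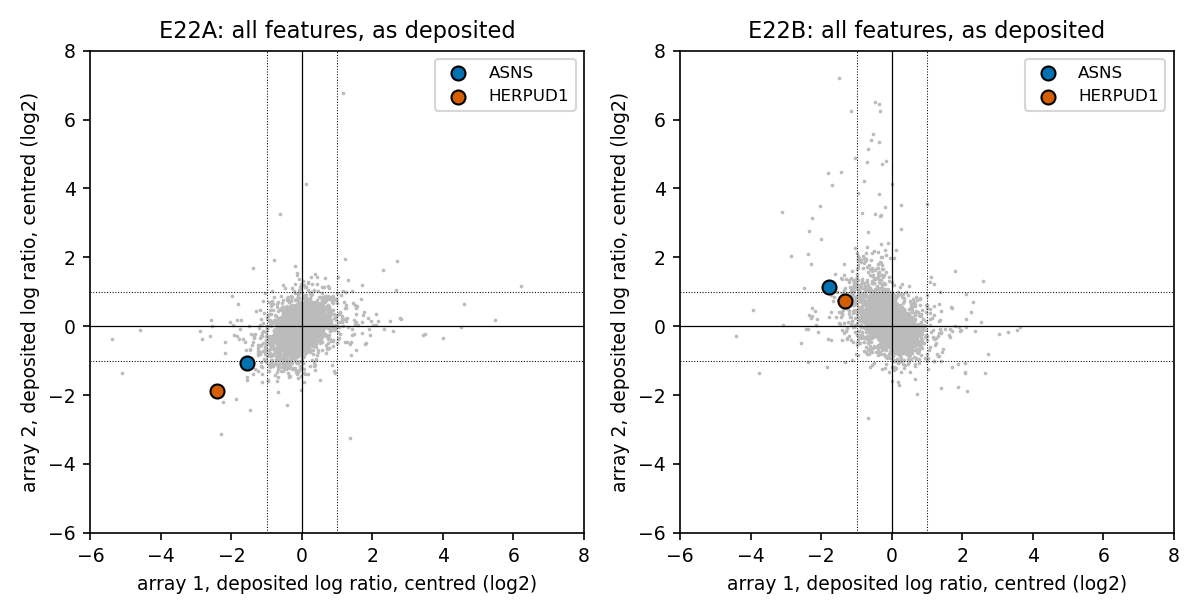
Centred log2 ratio as deposited on array 1 (horizontal axis) against array 2 (vertical axis) for all 8657 features (grey points), with ASNS and HERPUD1 in colour and dotted lines at 2-fold; E22A is on the left and E22B on the right. In E22A both genes lie at negative ratios on both arrays, and in E22B they lie at negative ratios on array 1 and positive on array 2.

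To speak of a transfectant against its control, the arrays have to be turned to the same direction. For E22B the titles and the channel labels name the same dyes, with the transfectant in Cy3 on array 1 and in Cy5 on array 2, and the arrays correlated at r = -0.41 over features as deposited. Array 1 was therefore turned. Positive then means the side on which CDH1 (E-cadherin) stands in E22B, at 0.93 ± 0.20 (SD, n = 2 arrays), called here the E-cadherin side. With Cy5 as the numerator it would mean higher in the transfectant, the reverse of a loss of E-cadherin. These ratios alone do not show whether E-cadherin was lost. No source used here gives the numerator, so no rise or fall is stated.

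In E22B both genes lay on the E-cadherin side of both arrays. ASNS had turned ratios of 1.77 and 1.15, a mean of 1.46 ± 0.44 (SD, n = 2 arrays) or 2.75-fold, at place 47 of 8657 from the top. HERPUD1 had 1.32 and 0.73, a mean of 1.03 ± 0.42 (SD, n = 2 arrays) or 2.04-fold, at place 160. For each gene the first array was the larger, and the ranges of the genes over these arrays overlap. Of all features 34.8% lay on the E-cadherin side of both E22B arrays. At 2-fold or more on both arrays stood 0.635% of the features, and 0.52% did so on the E-cadherin side. ASNS was one of these and HERPUD1 was not, and since the genes were chosen on these ratios nothing is read from that.

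Ordered by the smaller of both E22B ratios, ASNS took place 14 among the named genes on the same side of both arrays, between TMSB4Y (1.17) and KLF8 (1.13). HERPUD1 took place 91, between POLE2 (0.73) and SOX9 (0.72). The genes next to the 2-fold limit were CD151, just inside at 1.02, and KISS1R, just outside at 0.999 on the side opposite to E-cadherin. On E22B array 2 ASNS thus lay above the limit at 1.15, but at 1.06 with the arrays scaled to a common spread. HERPUD1 fell short of the limit on that array, at 0.73, or 0.68 with scaling.

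The part of the E22B ratio that did not turn with the dye was alike for both genes and smaller than the part that turned. The mean of the deposited ratios of both arrays, in which an effect that follows the transfectant cancels, was -0.31 for ASNS and -0.30 for HERPUD1. The median size of this mean over all features was 0.0755, and 7.96% and 8.72% of the features exceeded ASNS and HERPUD1 in size. In E22A the same mean was -1.31 for ASNS and -2.14 for HERPUD1, exceeded in size by 0.462% and 0.127% of features, beside a median size of 0.129. So the ratios of both genes changed sign between the E22B arrays and kept it between the E22A arrays.

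For E22A the labels conflict. The titles put the transfectant in Cy5 on array 1 and in Cy3 on array 2, as an exchange of dyes would. The title of array 1 spells the transfectant EE2A, and it is read here as E22A because the channel labels of that array name E22A. The channel labels put it in Cy3 on array 1. On array 2 they name the control in Cy5 and give no separate text for Cy3, so that the transfectant is placed there by what remains and by the title. Turned under the titles, the arrays correlated at r = -0.37 over all features, beyond the limit of -0.3 used here, so the direction of E22A is not settled and all readings are given.

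Under the titles, the members cancel. ASNS had turned ratios of -1.55 and 1.08, a mean of -0.23 ± 1.86, and HERPUD1 -2.40 and 1.88, a mean of -0.26 ± 3.03 (both SD, n = 2 arrays). Neither met the 2-fold rule, which 0.0231% of features met in this reading. Under the channel labels ASNS had 1.55 and 1.08, a mean of 1.31 ± 0.33 or 2.49-fold, at place 22 from the top. HERPUD1 had 2.40 and 1.88, a mean of 2.14 ± 0.36 or 4.42-fold (both SD, n = 2 arrays), at place 6. Both then met the rule, as did 0.381% of features, or 0.254% on the E-cadherin side. In that reading the transfectant is in the same dye on both arrays, so a dye effect of a gene and an effect of E22A cannot be told apart.

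With both E22A arrays turned once more, the means were -1.31 for ASNS and -2.14 for HERPUD1. Reading the values as channel 2 over channel 1 gave 0.23 and 0.26, with the SDs of the title reading. That reading leaves E22B as it is. The mean of both genes in E22A, and whether it lies above or below 0, therefore depend on which label is taken. The sign that they share on each array does not. CDH1 had -0.90 and -1.13 on the E22A arrays as deposited. Both genes therefore had the sign of CDH1 on each E22A array in every reading. The E22A mean of CDH1 was 0.11 ± 1.43 under the titles and 1.01 ± 0.16 under the channel labels (both SD, n = 2 arrays). It was -1.01 with the pair turned and -0.11 as channel 2 over channel 1.

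**Figure D3:**
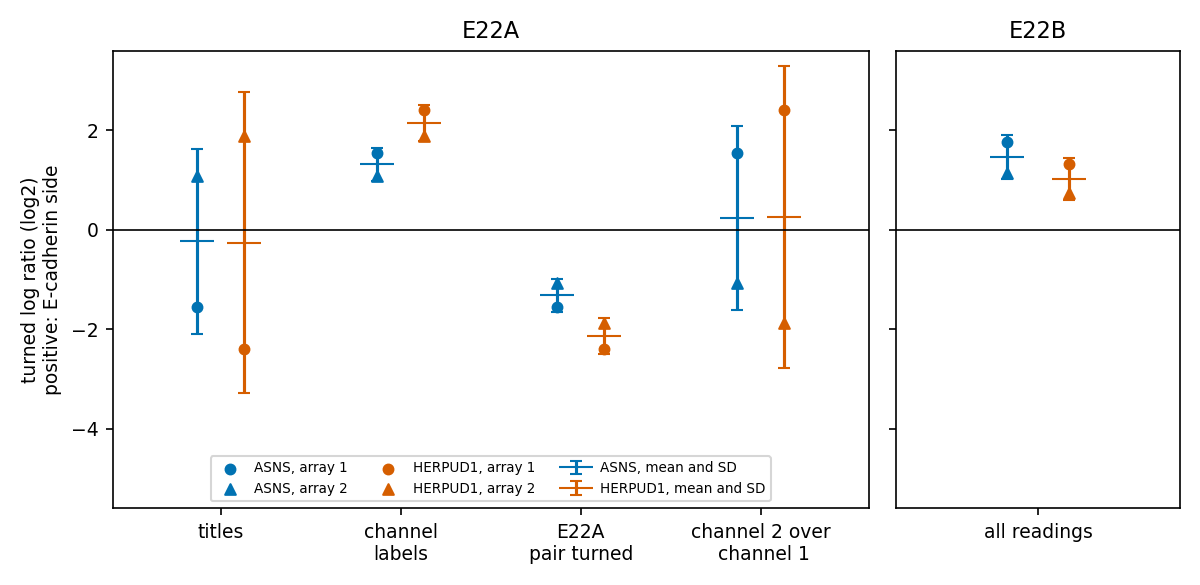
Turned log2 ratio (vertical axis) of ASNS and HERPUD1 in E22A under 4 readings of the labels and in E22B, which is the same in all. Positive is the side of CDH1 in E22B. In E22A the mean of CDH1 itself is positive under the titles (0.11) and the channel labels (1.01) and negative in the other readings. Circles are array 1, triangles array 2, and bars the mean with its SD over 2 arrays. In E22A both means are near 0 under the titles and at 1.31 and 2.14 under the channel labels, and in E22B they are 1.46 and 1.03.

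Under the channel labels both genes were positive on all 4 turned arrays, as were 17.2% of the features. ASNS was at 2-fold or more on all of them, as was 0.127% of the features on that side, and HERPUD1 missed this on E22B array 2 only. These figures use the ratios that chose the genes and add nothing to them. The control RNA is shared by all arrays, so the values of E22A and E22B stand side by side and their likeness is not a separate result.

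The genes most like the members were found by the distance over the 4 centred ratios, which is the same for every reading of the dyes. The nearest to ASNS was DPP4, a cell-surface peptidase, at a distance of 0.48 log2 units. The next was CTH, cystathionine gamma-lyase, which makes cysteine and is itself a target of ATF4, at 0.52. DSP (desmoplakin, of desmosomes) followed at 0.57, KRT14 (a basal keratin) at 0.60 and PLAU (urokinase) at 0.67. The median distance over 4890 genes was 2.85. CTH had -1.12, -1.19, -1.55 and 0.98 on the arrays in order, and DPP4 -1.74, -1.03, -1.34 and 1.10.

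HERPUD1 had no gene as close. DPP4 was again the nearest at 1.14, followed by PLAU (1.25), KRT14 (1.29), KLF9 (a zinc finger factor, 1.43) and CTH (1.49), against a median of 3.43. ASNS stood at 1.33, between KRT14 and KLF9. Seen from ASNS, HERPUD1 took place 38 among the named genes. The E22A ratios of HERPUD1, -2.40 and -1.88, lay below those of all 5 of its neighbours, whose lowest values were -1.74 and -1.39. The neighbours are a description over 4 arrays that share a control.

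**Figure D4:**
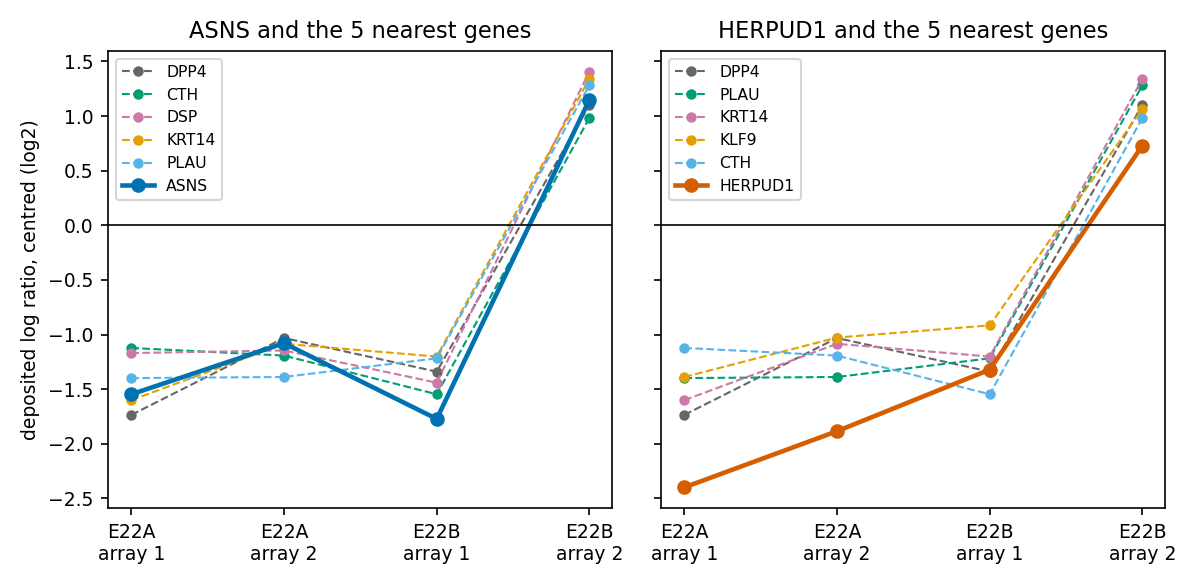
Centred log2 ratio as deposited (vertical axis) on the 4 arrays (horizontal axis) for ASNS on the left and HERPUD1 on the right (thick lines), each with the 5 named genes at the smallest distance, the other member left out (dashed lines). The neighbours of ASNS follow it closely, with DPP4 at a distance of 0.48, while HERPUD1 lies below its neighbours on both E22A arrays.

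The genes around the members were compared through 7 lists of their pathways. Between them the lists had 67 genes with a value on all arrays. In the pooled comparison the mean ratios of E22A and E22B were tested against 0 with limma over all features, with Benjamini-Hochberg adjustment at 0.05. Under the titles limma called 0% of the features, with 283 at an unadjusted p under 0.05, and under the channel labels 0.0116%, which is 1 clone without a symbol. None of the 67 genes passed in either direction in either reading. At an unadjusted p under 0.05 stood 6 of them under the titles and 20 under the channel labels, or 8.96% and 29.9%, beside 3.27% and 13.4% of all features. The test treats the transfectants as replicates and leaves out the spread of the control.

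The amino acid response, the group of ASNS, lay on average on the side of the members in E22B, far closer to 0 than they did. Of 20 genes with a clone 18 were measured. Their median in E22B was 0.22, against -0.0022 for all features, with 8 on the E-cadherin side of both arrays and 3 on the other. That is 44.4% and 16.7%, beside 34.8% and 35.6% of all features. The median was 0.13 without E22B array 1 and 0.25 without array 2. None was at 2-fold on both E22B arrays. In E22A the median was -0.05 under the titles, where it turned to 0.14 without array 1 and was -0.18 without array 2, and 0.21 under the channel labels. In the latter reading 12 lay on the E-cadherin side of both arrays (66.7%) and 2 on the other (11.1%), beside 32.7% and 34.8% of all features. Over all 4 arrays 7 of the 18 lay on that side under the channel labels (38.9%, beside 17.2% of all features) and 1 under the titles (5.56%, beside 4.18% of all features).

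Within this group MTHFD2, a mitochondrial folate enzyme, had the largest mean in E22B, 1.40 ± 1.21 (SD, n = 2 arrays), from -2.25 and 0.54 as deposited. Its E22A ratios were -1.37 and -0.33 as deposited. CTH stood at 1.27 ± 0.40 in E22B (SD, n = 2 arrays), and under the channel labels at 1.16 in E22A, where it was the only gene of the lists at 2-fold on both arrays. VLDLR, a lipoprotein receptor, stood on the other side, at -0.77 ± 0.02 (SD, n = 2 arrays) in E22B and at 1.01 and 0.97 as deposited in E22A. The signs of VLDLR were the reverse of those of ASNS on all 4 arrays.

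ATF4 itself, named here for its role after its values were seen, had deposited ratios of -0.92 and -0.67 in E22A, then -0.38 and -0.04 in E22B. It shared the sign of ASNS on the first 3 arrays and did not turn in E22B, where its mean was 0.17 ± 0.30 (SD, n = 2 arrays). DDIT3 and TRIB3, other targets of ATF4, had no clone under these symbols in the annotation used.

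The aminoacyl-tRNA synthetases, which load amino acids onto tRNA and of which many are ATF4 targets, had a median of 0.26 over 8 measured genes in E22B. On the E-cadherin side of both E22B arrays were 6 of them (75%) and on the other side 0, beside 34.8% and 35.6% of all features. The E22B median was 0.18 with incomplete features kept. In E22A the median was -0.10 under the titles, 0.08 without array 1 and -0.16 without array 2. Under the channel labels it was 0.13, with 3 of 8 on the E-cadherin side of both arrays (37.5%, beside 32.7% of all features) and 0 on the other. KARS1 (lysine) stood at 0.78 ± 0.42, GARS1 (glycine) at 0.50 ± 0.23 and WARS1 (tryptophan) at 0.37 ± 0.17 in E22B (all SD, n = 2 arrays). KARS1 had -1.10 and -0.71 in E22A as deposited and so had the signs of ASNS on every array. NARS1, the asparagine enzyme, had no value on the E22B arrays.

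Genes of asparagine, aspartate and glutamine metabolism lay closer to 0. Over 7 measured genes the E22B median was 0.18, with 5 on the E-cadherin side of both arrays (71.4%) and 0 on the other, beside 34.8% and 35.6% of all features. That median was 0.06 without E22B array 1 and 0.04 without array 2. In E22A it was -0.03 under the titles, 0.0016 without array 1 and -0.25 without array 2. Under the channel labels it was 0.06, with 0.0016 without array 1 and 0.25 without array 2. PPAT, which uses glutamine to start purine synthesis, stood at 0.34 ± 0.17 in E22B, GLUD1, glutamate dehydrogenase, at 0.27 ± 0.34, and ADSL, of purine synthesis from aspartate, at 0.25 ± 0.26 (all SD, n = 2 arrays). The clones of GLUD1 disagreed, at -0.06 and 0.61 in E22B. No other enzyme of this list came near the 1.46 of ASNS, the highest mean being that of PPAT.

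The list of eIF2 kinases and subunits of eIF2 and eIF2B, upstream of ATF4, also held GCN1 and PPP1R15B, which are neither. Its median was 0.08 over 7 genes in E22B. That became -0.10 with the median taken over clones, -0.13 without E22B array 1 and 0.23 without array 2. The side of this list is therefore not fixed by these arrays. EIF2S2 stood at -0.38 ± 0.61, GCN1, the activator of the kinase GCN2, at 0.32 ± 0.04 and EIF2S3 at 0.25 ± 0.13 (all SD, n = 2 arrays). In E22A the median was -0.13 under the titles and -0.0058 under the channel labels, where it ran from -0.15 without array 1 to 0.11 without array 2. GCN1 was the only gene of this list with the signs of ASNS on all arrays, at -0.31, -0.33, -0.29 and 0.35. The clones of the kinase EIF2AK2 with a value on all arrays disagreed, at 0.70, -0.14 and -0.31 in E22B. A PPP1R15B clone without a value on E22B array 2 had -1.46, -0.62 and -1.33 on the other arrays in order. The PPP1R15B clone measured on all arrays had -0.09, -0.01, 0.06 and -0.17.

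Sensors and factors of the unfolded protein response, the group upstream of HERPUD1, had a median of 0.08 over 7 genes in E22B. It was 0.27 without E22B array 1, and 0.02 without array 2 or with incomplete features kept. In E22A it was 0.03 under the titles, turning to -0.06 without array 2, and 0.01 under the channel labels, where it was 0.03 without array 1 and 0.06 without array 2. XBP1, the spliced factor of this response, stood at 0.45 ± 0.45 in E22B, CREB3L2 at 0.25 ± 0.22 and CREB3 at 0.21 ± 0.08 (all SD, n = 2 arrays). XBP1 had -0.45 and -1.02 in E22A as deposited and was the only one of the 7 with the signs of HERPUD1 on all arrays. Another XBP1 clone, without a value on E22A array 2, had -1.45, -0.52 and 1.89 on the other arrays in order.

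Chaperones and folding enzymes of the endoplasmic reticulum had a median near 0. Over 13 measured genes the E22B median was -0.03 (0.01 with incomplete features kept, -0.02 without array 1 and -0.13 without array 2). On the E-cadherin side of both E22B arrays lay 1 gene (7.69%) and on the other side 6 (46.2%), beside 34.8% and 35.6% of all features. In E22A the median was 0.01 under the titles, 0.04 without array 1 and -0.06 without array 2, and 0.07 under the channel labels. There the order of the counts was the opposite, with 7 genes on the E-cadherin side of both arrays (53.8%) and 4 on the other (30.8%), beside 32.7% and 34.8% of all features. FKBP2, a prolyl isomerase, stood at -0.69 ± 0.42, but its clones disagreed, at 0.02 and -1.40. CANX, calnexin, stood at 0.46 ± 0.72 and CALR, calreticulin, at 0.31 ± 0.85 in E22B (all SD, n = 2 arrays). CALR had -0.97 and -1.61 in E22A as deposited, the signs of HERPUD1, but 0.29 and 0.91 in E22B, where it did not turn.

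The defining chaperones of the unfolded protein response were measured in part. HSPA5 (BiP) had 0.08 and 0.28 on the E22A arrays and HSP90B1 (GRP94) -0.33 and -0.41 as deposited, and neither had a value in E22B. On the E22A arrays HSPA5 thus had the sign opposite to HERPUD1 and HSP90B1 the same sign, both at a small size. An SDF2L1 clone without a value on E22B array 1 had -2.12 and -2.19 in E22A and 0.47 on E22B array 2, near the ratios of HERPUD1, while the SDF2L1 clone measured on all arrays had -0.17, 0.03, 0.09 and -0.24. The incomplete clones of PPP1R15B, XBP1 and SDF2L1 were singled out after their values were seen. The remaining chaperone genes without a value on all arrays were mixed in sign against HERPUD1. PDIA5 had 0.65 on E22A array 2, its only array, opposite to HERPUD1. DNAJC3 had 0.32 on E22A array 1, also opposite, but -0.15 and 0.44 on the E22B arrays. P4HB had -0.37 on E22A array 2, then 0.24 and 0.03 on the E22B arrays, opposite on E22B array 1 only.

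The degradation pathway in which HERPUD1 acts had a median of 0.07 over 7 genes in E22B, which was 0.02 without E22B array 1 and turned to -0.06 without array 2. In E22A it was -0.13 under the titles, 0.0050 without array 1 and -0.10 without array 2, and -0.01 under the channel labels, where it was 0.0050 without array 1 and 0.10 without array 2. VCP, the ATPase that extracts substrates from the membrane, stood at -0.44 ± 0.37 in E22B. UBQLN1, a ubiquilin shuttle protein, stood at 0.33 ± 0.71 and EDEM1, which marks glycoproteins for removal, at 0.17 ± 0.02 (all SD, n = 2 arrays). EDEM1 alone had the signs of HERPUD1 on all arrays, at -0.58, -0.14, -0.15 and 0.18. SYVN1, the HRD1 ligase itself, stood at 0.09 ± 0.10 (SD, n = 2 arrays), with its clones at -0.05 and 0.24. No gene of this list had an E22B mean as large as the 1.03 of HERPUD1.

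**Figure D5:**
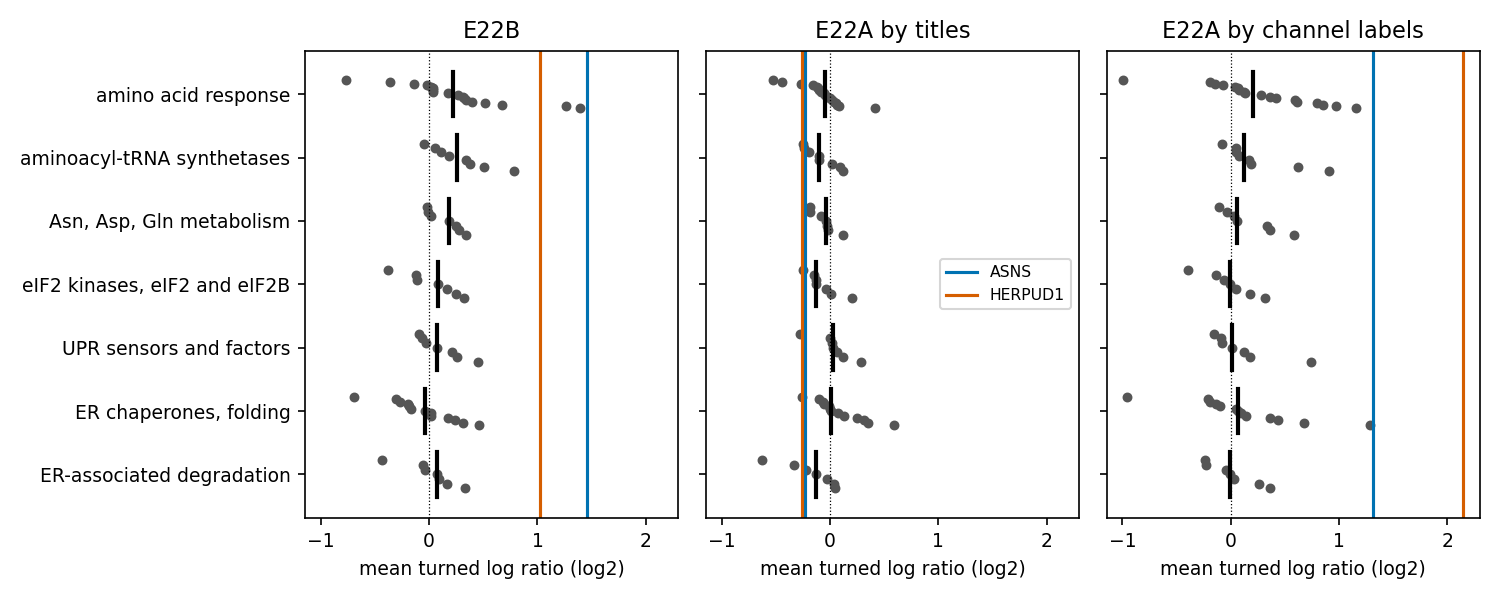
Mean turned log2 ratio over 2 arrays (horizontal axis) of each measured gene of 7 pathway lists (points, rows), with the list median as a black bar and ASNS and HERPUD1 as vertical lines; panels show E22B, E22A under the titles and E22A under the channel labels. In E22B the medians run from -0.03 to 0.26 and the highest point, MTHFD2, is at 1.40.

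Over all lists 16 of the 67 genes had the signs of the members on all 4 arrays (23.9%), beside 17.2% of all features, and 5 had the reverse (7.46%, beside 16.1%). In the dog genome (RefSeq table of a German Shepherd assembly) the members lie among other genes, of which the 5 nearest protein-coding genes on each side were looked up. For ASNS 3 of the 10 were measured (TAC1, C1GALT1 and RPA3), with ratios between -0.19 and 0.16. For HERPUD1 4 of the 10 were measured (ARL2BP, RSPRY1, MT1E and MT2A), between -0.60 and 0.60. ARL2BP, the largest, had -0.22, -0.60, -0.12 and 0.60, and RSPRY1 had -0.11, -0.12, -0.23 and 0.15. Both had the signs of HERPUD1 on all arrays at smaller sizes.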

How the data were processed

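RNA of MDCK cells carrying E22A or E22B was read against MDCK-CMV control RNA on 4 arrays with 2 dyes. The authors deposited 1 log ratio of the dyes per spot, taken here as log2. The base, the numerator, the background correction and the normalisation were named by no source used here. Deposited medians lay between -0.0099 and 0.0029. Depth has no meaning for arrays, and their number limits the precision.

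Gene names came from the platform annotation: 8744 clones had 1 symbol, 327 several and 4753 none. The array was made from human genes and read with dog RNA. Duplicate spots were averaged, arrays centred on their median, and clones on all 4 arrays averaged by symbol. Folds are 2 to the power of the log2 ratio. The pooled test used R 4.3.3 with limma 3.58.1 (lmFit and eBayes, with Benjamini-Hochberg adjustment over 8657 features) and was tested on simulated data; the rest used Python 3.11.15. For each list the 3 genes with the largest E22B means are named, with any at 2-fold on both arrays of a transfectant, and 5 neighbours per member. The members and lists were chosen with earlier results of these data known. Alternatives were the reading of the labels, centring, scaling, the weaker duplicate spot, the median over clones, incomplete features, and leaving out each array. No sequences of the clones, promoters or proteins were used here.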

Additional observations from a re-analysis of the deposited data

How the results depend on the processing

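In E22B ASNS ran from 1.15 to 1.77 and HERPUD1 from 0.73 to 1.32 over the alternatives tried, both ends given by leaving out an array. With 2 arrays the mean without one of them is the other array's own value and always lies within 1 SD, which says nothing about stability. In E22A the SD under the titles is so wide that every reading lies within it, which is no sign of stability either. Under the channel labels ASNS ran from 1.08 to 1.55 and HERPUD1 from 1.88 to 2.40 over the settings added after seeing the data.

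The count of E22A features at 2-fold on both arrays was 2 under the titles. It was 33 under the channel labels or with the pair turned, and 4 with the arrays scaled alike. Under the channel labels it was 40 with scaling, 34 with incomplete features, 33 with the median over clones or no centring and 30 with the weaker spot. With 1 array it was 181 to 182, and in E22B 218 to 263 in place of 55. The pooled test (limma) called 0 features under the titles and 1 under the channel labels. There it called 4 with scaling, 8 with the median over clones, 13 with the weaker spot and 31 without E22B array 2, CTH among these, and 0 in the other settings tried. The causes were not tested, beyond fewer arrays having to meet the 2-fold limit. With no scanner intensities used, signal over background could not be weighed.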
